A study of Homo sapiens with 34 samples.

Results

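The intervals described here were bound by BMAL1 in control cells and had no peak in any of the other 3 clock factor libraries. They were chosen by their entries in the merged peak list. Members had a peak in the BMAL1 library of DMSO-treated cells and none in the BMAL1 library of 6AN-treated cells or in either CLOCK library. The rule found 765 of the 4001 merged intervals (19.1%), which is 48.5% of the 1577 intervals with a BMAL1 peak in control. The presence and absence of these peaks, and the control BMAL1 score, come from the readout that chose the members, so they are given as a description with no test.

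All samples came from U2OS, an established cell line of human osteosarcoma, in a form that stably carries the reporter *Bmal1*:*luc* (luciferase under the *Bmal1* promoter). Control cells received DMSO and treated cells received 5 mM 6AN (6-aminonicotinamide), an inhibitor of the pentose phosphate pathway (PPP), and no group had a genetic change other than the reporter. Chromatin was taken after 24 hr, with 1 library per antibody and condition and no replicate. A peak that is present in 1 library and missing in another thus carries no error estimate. RNA was taken from cells synchronized with dexamethasone at 12 time points per condition, with 1 library per time point. The time points are labelled CT00 to CT44 in steps of 4 hr. The RNA of *ARNTL*, the gene of BMAL1, was at 11.2 FPKM in control and 3.58 in 6AN at CT12. At CT24 it was at 5.93 in control and 11.5 in 6AN. Chromatin was not sampled at other times, and its clock phase was not tested. A peak listed in control alone or in 6AN alone thus does not separate clock phase from treatment. Of the osteoblast lineage markers, *SPARC* (290 to 368 FPKM in control), *COL1A1*, *RUNX2*, *ALPL*, and *VIM* were expressed in every library and *COL1A2* was at or under 0.106 FPKM, while *PTPRC*, *ALB*, *CDH1*, and *GFAP* stayed under 0.5 FPKM and *EPCAM* reached 1.69 FPKM.

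BMAL1 (gene *ARNTL*) is a basic helix-loop-helix PAS protein that binds DNA as a dimer with CLOCK or with its relative NPAS2. The dimer recognizes E-boxes, of which CACGTG is the canonical form, and drives the *PER*, *CRY*, and REV-ERB genes. The PER and CRY proteins repress the dimer in turn. A BMAL1 peak without a CLOCK peak is therefore not the form in which the clock activator is usually described, and in these lists it was the more common form. The CLOCK libraries were shallower, with 4078867 tags in control and 4550722 in 6AN, against 7462051 and 7896480 for BMAL1. A missing CLOCK peak thus does not show that CLOCK was absent, and the part played by depth was not tested.

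The sequences under some of these intervals are shown first, because the gene start and the E-box are what the later counts refer to. They were read from the RefSeq promoter windows (GRCh38.p14), on the strand of the gene and 5′ to 3′, and cover the part of the interval that lies upstream of the gene start and within 250 bp of it. Capitals mark CACGTG. The first 5 hold an E-box inside the interval, and no CACGTG was found in the stretches of the last 3, which are shown for their gene or their score.
*PER1* chr17:8152418-8152618 (-): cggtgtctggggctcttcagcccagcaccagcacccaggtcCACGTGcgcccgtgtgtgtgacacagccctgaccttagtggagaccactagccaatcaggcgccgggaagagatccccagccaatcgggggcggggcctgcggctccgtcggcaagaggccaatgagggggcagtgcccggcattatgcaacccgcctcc
*TOM1* chr22:35299743-35299893 (+): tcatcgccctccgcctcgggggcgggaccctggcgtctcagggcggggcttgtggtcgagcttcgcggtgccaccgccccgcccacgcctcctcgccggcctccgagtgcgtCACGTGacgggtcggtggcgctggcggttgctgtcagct
*KLHDC3* chr6:43014048-43014248 (+): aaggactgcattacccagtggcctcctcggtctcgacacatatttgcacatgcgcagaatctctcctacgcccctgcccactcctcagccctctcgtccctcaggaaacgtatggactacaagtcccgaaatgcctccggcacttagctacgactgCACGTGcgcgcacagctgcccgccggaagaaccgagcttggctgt
*REV1* chr2:99490135-99490267 (-): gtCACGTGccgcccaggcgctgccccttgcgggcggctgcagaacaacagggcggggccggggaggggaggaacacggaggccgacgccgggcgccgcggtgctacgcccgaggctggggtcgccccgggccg
*THNSL1* chr10:25016420-25016611 (+): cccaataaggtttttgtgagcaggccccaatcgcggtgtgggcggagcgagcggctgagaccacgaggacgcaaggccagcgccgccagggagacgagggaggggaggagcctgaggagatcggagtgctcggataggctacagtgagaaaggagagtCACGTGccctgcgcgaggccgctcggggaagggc
*PGD* chr1:10398939-10399063 (+): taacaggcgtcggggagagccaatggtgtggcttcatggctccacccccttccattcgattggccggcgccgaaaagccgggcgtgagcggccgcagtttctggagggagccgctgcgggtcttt
*FOSL2* chr2:28392700-28392857 (+): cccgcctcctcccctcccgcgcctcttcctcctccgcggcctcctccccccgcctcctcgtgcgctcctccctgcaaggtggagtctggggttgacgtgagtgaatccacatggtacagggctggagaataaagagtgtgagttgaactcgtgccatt
*NBPF1* chr1:16613565-16613654 (-): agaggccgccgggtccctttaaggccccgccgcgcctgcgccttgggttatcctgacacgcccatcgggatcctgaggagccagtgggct

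In the *PER1* promoter the E-box was centred 56 bp from its interval's midpoint and at -170 bp from the gene start (negative distances are upstream). PER1 is a repressor of the BMAL1/CLOCK dimer, and its promoter is a textbook clock target. In *TOM1*, which encodes an endosomal sorting protein, the E-box was 14 bp from the midpoint and at -37 bp from the start. The E-box of *REV1*, a translesion DNA polymerase, was 27 bp from the midpoint, and an interval with a BMAL1 peak in 6AN lay 227 bp from that midpoint. The stretch under the *PGD* interval, in the gene of the PPP enzyme 6-phosphogluconate dehydrogenase that 6AN inhibits, held no CACGTG, and neither did those of *FOSL2*, an AP-1 subunit, or *NBPF1*.

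Control-only intervals were weak peaks. Every one was 200 bp wide and made of a single peak, and the HOMER score, which is the number of tags at the peak scaled to 10000000 tags per library, ran from 11.4 to 46.2 with a median of 15.4 (quartiles 14.1 and 17.4). In the control BMAL1 library, of 7462051 tags, 1 tag was worth 1.34 on this scale, so members held between 8.5 and 34.5 tags, with a median of 11.5. The 95% exact Poisson interval of 11.5 tags runs from 5.84 to 20.3 and covers counting error only. The lowest-scoring peaks called in 6AN alone held 8.53 tags of a library of 7896480 tags, so the smallest called peak was of similar size in both lists. A score under 20 was found for 650 of the 765 members (85.0%), and 12 had a score over 30.

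Scores differed between classes of interval. The 1360 intervals with a BMAL1 peak in 6AN alone had a median score of 15.8, close to the members. The 428 intervals with BMAL1 in both conditions and no CLOCK peak had a median of 20.4, and the 163 with BMAL1 and CLOCK in control a median of 35.8. All intervals of the last 2 classes were merged from several peaks, so their score was not from the control BMAL1 library alone.

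**Figure D1:**
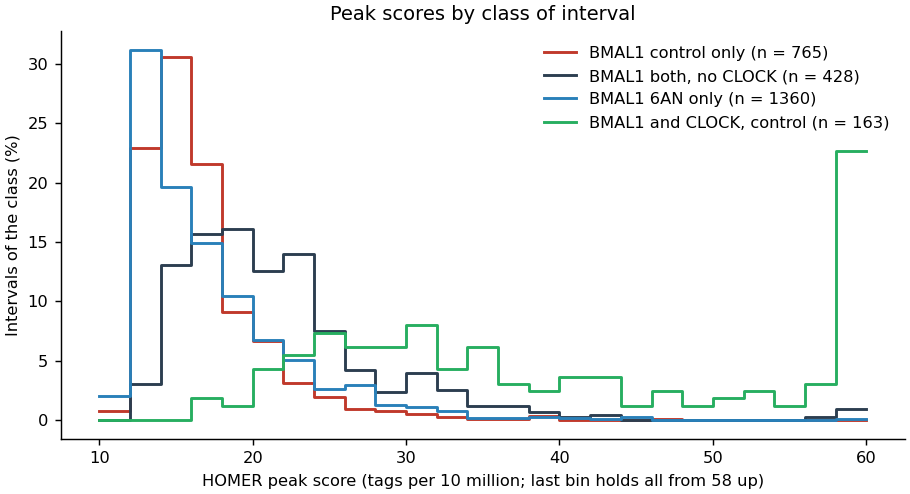
Distribution of HOMER peak scores (x axis, tags per 10000000, bins of 2, the last bin holding all scores from 58 up) as the percentage of intervals in each of 4 classes (y axis). The control-only class lies at low scores with a median of 15.4, beside the 6AN-only class (15.8) and left of the classes found in both conditions (20.4) or with CLOCK (35.8).

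The members at the top of the score range were of mixed kinds. The highest score, 46.2, belonged to an interval 10 bp downstream of the start of *NBPF1* (chromosome 1, 16613454 to 16613654, hg38), a gene of a multicopy family in which reads of near-identical copies may be shared. The next, 39.5, lay at the *RNA45S5* locus of the ribosomal RNA repeats on chromosome 21 (8435059 to 8435259), where the same limit applies. An interval on chromosome 22 (50807898 to 50808098, score 38.9) was within 5 kb of no locus of the expression tables. An interval inside *ACTB*, the gene of beta-actin (chromosome 7, 5530038 to 5530238), scored 38.2, and an interval near *SOCS5* (chromosome 2, 46699083 to 46699283) scored 34.8. The others of the 10 highest were 1 interval on chromosome 8 (144428468 to 144428668, score 37.5) and the promoters of *USP32* (33.5, at -209 bp from the start), *TOM1* (32.2, at -51 bp), *STYX* (31.5, at -105 bp), and *PER1* (31.5, at -114 bp, chromosome 17, 8152418 to 8152618). Further intervals on chromosomes 17 and 8 also scored 31.5 and fell outside the 10 only because ties were ordered by chromosome and position. *PER1* was thus among the strongest peaks that were missing from the 6AN list. At the other end, 6 members shared the lowest score of 11.4, among them intervals at *LAP3*, at *PCOLCE-AS1*, and near *SLC25A51*.

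Absence from the 6AN list did not always mean that the region had no BMAL1 peak in 6AN. The nearest interval with a BMAL1 peak in 6AN was at a median distance of 167 kb, but for 49 members (6.41%) it was within 1 kb, the closest at 201 bp. Of these 49, 33 had a 6AN-only interval that near, 14 an interval with BMAL1 in 6AN and CLOCK in either condition, and 3 an interval with BMAL1 in both conditions, so 1 member counts in more than one of these groups. *CLOCK* itself shows this arrangement. Its control-only interval (chromosome 4, 55546420 to 55546620, score 16.1) lay 389 bp downstream of the gene start, and a 6AN-only interval with a score of 18.4 lay 111 bp downstream, 278 bp away. The members at *REV1* (227 bp), *HEY1* (261 bp), *RPE* (359 bp), and *REST* (369 bp) also had an interval with a BMAL1 peak in 6AN that near. Neighbours as close as 201 bp thus stayed separate entries of the merged list.

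The signal itself was available for 10 members, since these fell inside the 1000 bp windows quantified at the 439 sites that BMAL1 and CLOCK shared in 6AN. Those windows were chosen by peaks in 6AN, and they hold a neighbouring peak as well as the member. BMAL1 signal was lower in 6AN than in control at 6 of the 10 and higher at 4, with a median log2 ratio of -0.095 (range -0.44 to 0.70). Across all 439 windows it was higher in 6AN at 365 (83.1%), with a median log2 ratio of 0.48. The members were chosen by a BMAL1 peak in control and none in 6AN. A lower BMAL1 ratio at their 10 windows is thus in part built in by the rule and is no independent evidence. CLOCK signal was higher in 6AN at 10 of the 10 windows and at 98.2% of all 439, which were chosen by a CLOCK peak in 6AN. None of the members fell inside the windows of the sites shared in control.

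Among the 10, the window at *GET4*, a gene for the insertion of tail-anchored proteins, had the lowest ratio, with a BMAL1 signal of 42.9 tags in control and 31.7 in 6AN. In the window that the authors annotated to *SCARB1*, the HDL receptor gene, whose member lay within 5 kb of no locus of the expression tables, the signal was 28.1 in control and 45.6 in 6AN. Thus an interval listed in control alone could lie in a window with more BMAL1 signal in 6AN. CLOCK signal at *ELFN2* went from 65 tags in control to 175 in 6AN, and at *HSPB1*, which encodes a small heat shock protein, from 25.7 to 73.6. Input signal in these windows was at most 21.8 tags at *ELFN2* in 6AN. H3K4me3, a mark of active promoters, reached 404 tags at *HSPB1* in control and 393 at *GDI2* and *IFRD2*, and was 10.9 at *ELFN2* and 17.2 at *SCARB1*. No replicate exists for any of these values.

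**Figure D2:**
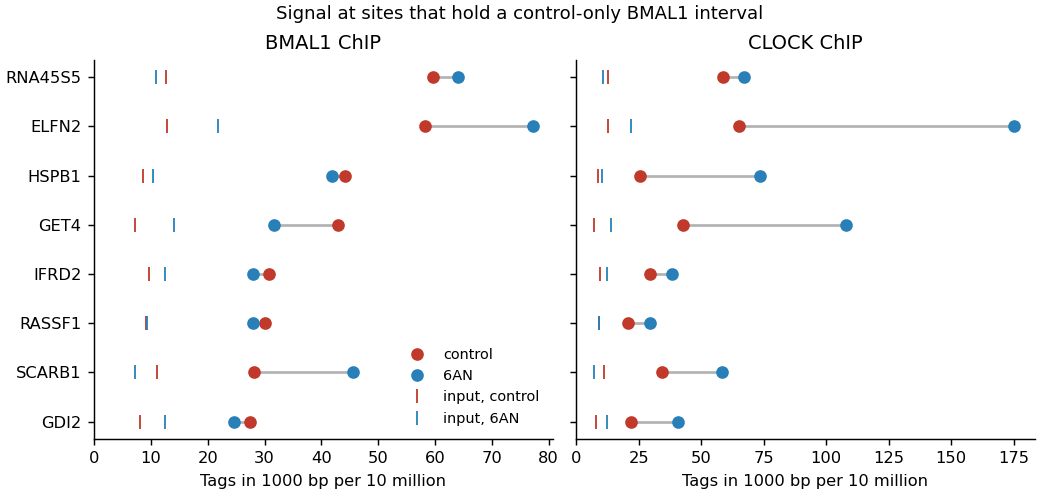
BMAL1 (left) and CLOCK (right) ChIP-seq signal, in tags per 1000 bp scaled to 10000000 tags (x axis), at 8 of the 10 windows that hold a control-only interval, named by gene (y axis), with the window on chromosome 8 and 1 other not reported here. Points are single libraries of control and 6AN and ticks are the inputs. BMAL1 moved either way between conditions, as at *GET4* (42.9 to 31.7) and *SCARB1* (28.1 to 45.6), and CLOCK was higher in 6AN at each.

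Control-only intervals gathered at gene starts. Gene starts were those of a RefSeq set that covered the chromosomes of 722 members. Some genes had no start in this set, among them *ACTB*, so the interval inside it was counted at -101211 bp from *LINC02983*. Distances are to the nearest start in the set, and shares near a start may be too low for this reason. The 43 members on chromosome 8 were left out of these counts. The midpoint lay within 1 kb of a start for 489 of 722 members (67.7%, 95% Wilson interval 64.2 to 71.0) and within 100 bp for 265 (36.7%), and the median distance was 165 bp. Upstream positions were favoured, with 335 of the 489 upstream of the start and 154 downstream, and 289 lay within the 250 bp just upstream. The gene at the start was protein coding for 411 of the 489 and a long noncoding RNA for 78. At 158 of the 489, starts on both strands lay within 1 kb, which is the arrangement of a bidirectional promoter. Wilson intervals treat members as independent and cover counting error only.

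The share at gene starts set the members apart from 2 of the 3 classes most like them. It was 83.7% (345 of 412) for intervals with BMAL1 in both conditions and no CLOCK, a difference of -16 percentage points for the members (95% Newcombe interval -20.8 to -10.9). It was 50.3% (79 of 157) for intervals with BMAL1 and CLOCK in control, a difference of 17.4 points (8.94 to 25.8). Against the 6AN-only intervals (66.3%, 861 of 1299) the difference was 1.45 points and its interval, -2.86 to 5.66, included 0. Position was not used by the rule, but each class rests on single libraries and these intervals hold no replicate error.

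**Figure D3:**
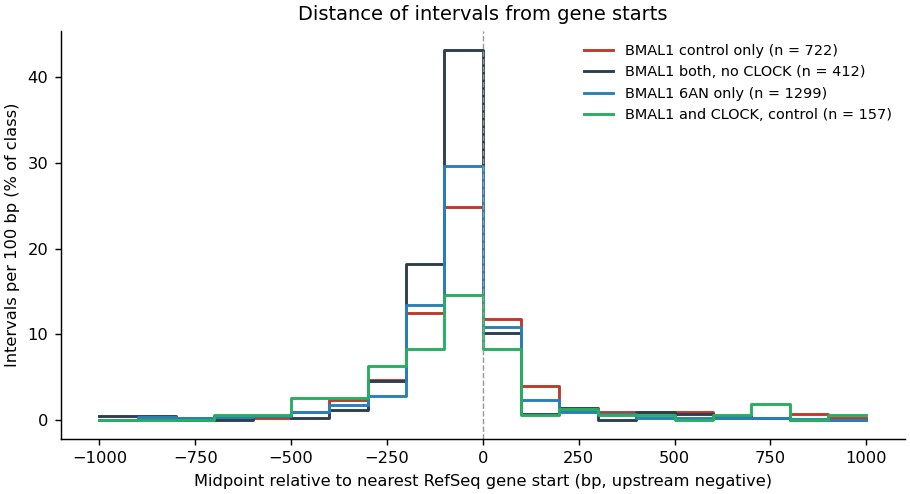
Position of interval midpoints relative to the nearest RefSeq gene start (x axis, bp, upstream negative) as the percentage of each class per 100 bp (y axis), for the part of each class within 1 kb. The control-only class peaks in the 100 bp upstream of the start with 24.9% of its 722 intervals, against 43.2% for intervals with BMAL1 in both conditions.

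With the members in 4 groups of 191 or 192 by score, from lowest to highest, the share at gene starts was 57.7% (109 of 189), 68.1% (126 of 185), 73.6% (134 of 182), and 72.3% (120 of 166). The 233 members more than 1 kb from a start of the set included 111 that lay inside a locus of the expression tables. For 64 members the nearest start of the set was over 50 kb away, which includes members such as that in *ACTB*, whose own start was missing. Of all 765 members, 378 (49.4%, 95% Wilson interval 45.9 to 52.9) had their midpoint inside a locus of the expression tables, and 47.6% inside one with a mean of at least 1 FPKM. The corresponding share was 41.1% for intervals with BMAL1 in both conditions (difference 8.29 points, 2.40 to 14.1), 47.6% for 6AN-only intervals (1.84 points, -2.58 to 6.25), and 43.6% for those with CLOCK in control (5.85 points, -2.59 to 14.0). By chromosome, members were most numerous on 2 (74), 1 (69), and 17 (60), and their shares stayed near those of all BMAL1 intervals in control, as on chromosome 2 (9.67% and 8.75%). Chromosome 19 held 4.31% of members and 6.09% of all control BMAL1 intervals. The most crowded megabases held 10 and 5 members on chromosome 8, 6 on chromosome 22, and 5 in each of 2 megabases of chromosome 17.

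Promoter sequence was examined where an interval overlapped the 300 bp window of a gene start (250 bp before it to 50 bp after). This was the case for 425 members and 579 promoters, since bidirectional promoters count for each gene. The promoters under members had a median GC content of 68.7%, against 58.7% over all 35116 promoters and 64.7% over the 14660 promoters of expressed genes. CACGTG, searched on both strands, was found in 82 of the 579 (14.2%, 95% Wilson interval 11.6 to 17.2), beside 7.26% of all promoters and 9.22% of those of expressed genes. By GC content, the shares under members and for expressed genes were 0 of 14 and 5.94% under 55% GC, 14.1% and 8.92% from 55% to 65%, 15.8% and 11.3% from 65% to 75%, and 12.1% and 9.56% above. A match describes the letters in the window and does not show a bound site.

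The E-box was far less common under members than under CLOCK-bound intervals, while the intervals of the differences from the other BMAL1 classes included 0. Of the 90 promoters under intervals with BMAL1 and CLOCK in control, 55 (61.1%) held CACGTG, a difference of -46.9 points for the members (95% Newcombe interval -56.7 to -36.2). For intervals with BMAL1 in both conditions the share was 13.3% and the difference 0.83 points (-3.40 to 4.96), and for 6AN-only intervals 11.8% and 2.38 points (-0.94 to 5.94). Counted by member, 66 of the 425 had the motif in an overlapped promoter and 41 had it in the part of the interval that these windows cover, among them *PER1*, *TOM1*, and *GAPDH*, a glycolytic enzyme gene that is named after its values were seen. The 77 motif positions were at a median of 66 bp from the midpoint, and 11 members had more than one.

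Other motifs varied too. TGACNNNGC, the core of the antioxidant response element bound by NRF2, was in 20% of promoters under members (95% Wilson interval 17.0 to 23.5) and 13.9% under 6AN-only intervals, a difference of 6.12 points (2.36 to 10.1), against 13.3% of all promoters. It was in 19.0% of promoters under intervals with BMAL1 in both conditions (difference 1.08 points, -3.76 to 5.82). TGACTCA, the AP-1 site, was in 2.76% under members and 4.95% of all promoters, and CACGTT, an E-box variant, in 5.01% and 5.34%. The next 3 motifs were chosen after the data were seen. GGGCGG, the GC box of SP1 family factors, was in 85.0% under members, 76.8% under 6AN-only intervals, 82.9% with BMAL1 in both conditions, 85.6% with CLOCK in control, 65.6% of promoters of expressed genes, and 45.0% of all promoters. GCGCATGC, the core of the palindrome bound by the nuclear respiratory factor NRF1, was in 11.1% under members and 24.4% under intervals with BMAL1 in both conditions, a difference of -13.3 points (-18.0 to -8.73), and in 16.6% under 6AN-only intervals, 2.22% with CLOCK in control, and 3.05% of all promoters. Among members with a score at or above the median of all control BMAL1 intervals it was in 19.7% of 122 promoters (95% Wilson interval 13.6 to 27.6), which overlaps the interval for BMAL1 in both conditions (20.7 to 28.4). CCAAT, the NF-Y box, was in 30.9% under members and 34.6% of all promoters. Members thus sat in GC-rich promoters, with fewer canonical E-boxes than CLOCK-bound intervals and, over all members, fewer GCGCATGC matches than intervals called in both conditions. High GC content was shared by all 4 classes, at medians of 68.7% for members, 69.2% for BMAL1 in both conditions, 67.3% for 6AN only, and 69.3% with CLOCK.

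**Figure D4:**
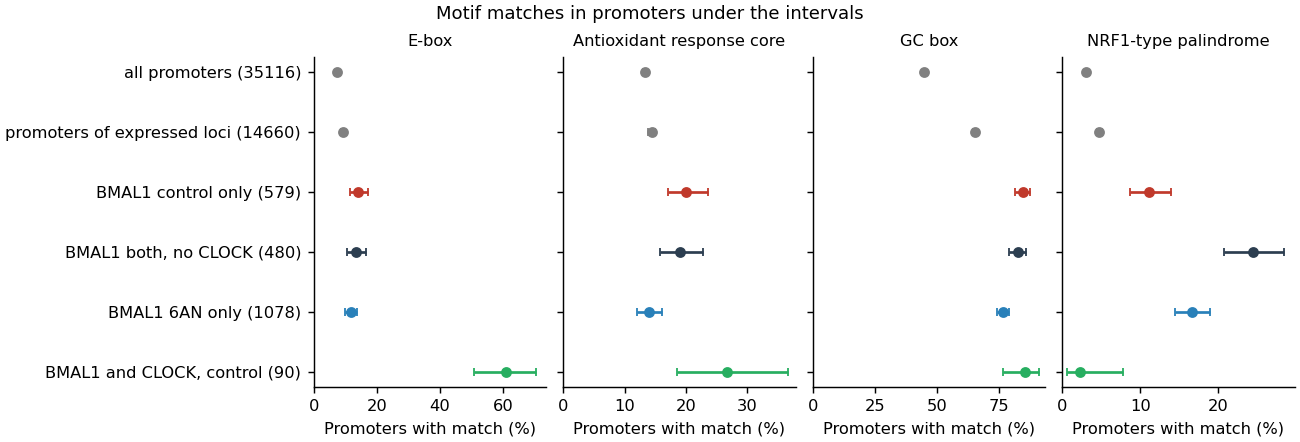
Percentage of promoters with a motif match (x axes) for all RefSeq promoters, promoters of expressed loci, and promoters under 4 classes of interval (y axis, number of promoters in brackets), with 95% Wilson intervals. The E-box is in 14.2% of promoters under control-only intervals and 61.1% under those shared with CLOCK, and the palindrome on the right is in 11.1% and, for BMAL1 in both conditions, 24.4%.

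Some clock genes were neighbours of control-only intervals. Control-only intervals lay inside or within 5 kb of 4.22% of all loci in the expression tables and 7.13% of those with a mean of at least 1 FPKM, which is the background for the lists that follow. Of the 24 genes in the clock list, 3 had such an interval inside their locus or within 5 kb (*PER1*, *CLOCK*, and *CSNK1E*). An interval with BMAL1 and CLOCK in control was found for 11 (against 0.767% of all loci and 1.30% of expressed ones). None had one with BMAL1 in both conditions without CLOCK (against 2.62% and 4.49%, shares at which few or none of 24 genes would have one). A 6AN-only interval was found for 2 (*ARNTL* and *CLOCK*, against 7.31% and 12.3%). *PER1* belonged to both of the first groups, because a second interval at -4095 bp from its start, with a score of 204, was called in 4 of the 4 libraries. The *CSNK1E* interval (score 20.1) was linked to a merged locus that also holds *LOC400927* and lay at -81168 bp from the *CSNK1E* start. *CSNK1E* encodes a kinase that phosphorylates PER proteins.

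Of the 18 NRF2 targets, *PGD* alone had a control-only interval (chromosome 1, 10398939 to 10399139, score 14.1, or 10.5 tags), at -25 bp from its start, while *FTL* had a 6AN-only interval. Of the 7 PPP enzymes, *PGD* and *RPE* had control-only intervals, and the *RPE* interval lay at the far end of a merged locus, 168623 bp from the *RPE* start and 148 bp from that of *KANSL1L*. Of the 10 AP-1 and early genes, *FOS*, *FOSL2*, and *ATF3* had control-only intervals, and *JUN* and *JUND* had 6AN-only intervals. No test was run on these counts. The *FOS* interval (score 14.7) lay 372 bp downstream of the start, that of *FOSL2* (20.1) at -58 bp, and that of *ATF3* (18.8) inside the locus.

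Expression of the linked loci was read from FPKM tables of 28690 loci. A locus was linked when a member's midpoint lay inside it or within 5 kb, which joined 687 members to 1211 loci. Of these, 997 (82.3%) were expressed, with a mean of at least 1 FPKM over the 24 libraries, against 48.7% of the whole table. Linked loci had a median of 16.6 FPKM in control, against 11.3 over the 13979 expressed loci. The control and 6AN tables were each normalized over their own 12 libraries, so levels were compared side by side at matched time points with no test between conditions. The tables give no read totals. Taking the values of loci seen in few libraries as single reads, depth relative to the table's median ranged from 0.59 (CT04) to 1.28 in control and from 0.70 (CT20) to 1.26 in 6AN.

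As a group, loci near control-only intervals stood close to all loci in their difference between conditions, with a slightly larger share higher in 6AN. Their median log2 ratio of mean FPKM (6AN over control, pseudocount 1) was -0.016 (95% interval of the median over loci -0.036 to 0.003), beside -0.041 for all expressed loci. At all 12 time points, 157 of the 997 (15.7%, 95% Wilson interval 13.6 to 18.1) were higher in 6AN, where 13.0% of all expressed loci were. At all 12, 200 (20.1%, 17.7 to 22.7) were lower, where 20.4% were. With the ratios centred on the median of all expressed loci, 191 were higher (19.2%, against 16.8% of all) and 165 lower (16.5%, against 17.4%). For the 499 loci whose own start lay within 1 kb of a member, 17.4% were higher at each time point and 20.2% lower. The loci of intervals shared with CLOCK in control stood at 25.8% higher and 15.4% lower (182 loci), those of 6AN-only intervals at 13.5% and 18.6% (1724 loci), and those with BMAL1 in both conditions at 13.1% and 21.3% (628 loci). In the same 4 groups by score, from lowest to highest, the share of linked loci higher in 6AN at each time point was 11.6%, 15.7%, 14.7%, and 21.3%. The share lower at each time point was 18.9%, 17.2%, 25.2%, and 17.8%, with no steady order. The groups were cut on the score that chose the members. These shares are descriptions, and loci that share a member are not independent.

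*PER1* had 1 of the 5 largest ratios among linked loci with one direction throughout. Its promoter peak was absent from the 6AN list, but its stronger interval at -4095 bp (score 204) had BMAL1 and CLOCK peaks in both conditions. The RNA of *PER1* ranged in control from 10.8 to 22.3 FPKM (median 15.1) and in 6AN from 18.2 to 46.1 (median 30.4). The 6AN value was higher at 12 of 12 time points, with a mean of 31.4 ± 8.45 against 15.3 ± 3.15 (SD over time points, n = 12), although the ranges overlapped. *CLOCK* differed the other way, from 6.83 to 8.97 FPKM in control (median 7.97) and from 4.98 to 7.15 in 6AN (median 5.94), and was lower in 6AN at 12 of 12, with ranges that overlapped. *PGD* was at 89.5 to 115 FPKM in control (median 98.0) and 118 to 142 in 6AN (median 128), so its 2 ranges did not overlap. The 3 clock and PPP genes with a promoter or start-proximal control-only interval thus held no common direction.

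Among the AP-1 genes, *FOSL2* was lower in 6AN throughout, at 43.7 to 65.1 FPKM in control (median 49.7) and 30.3 to 37.6 in 6AN (median 32.2). *FOS* was at 8.83 to 16 FPKM in control and 6.32 to 13.1 in 6AN, lower at 10 of 12 time points. *ATF3*, a stress-induced bZIP factor, was at 3.91 to 7.11 FPKM in control (median 5.74) and 11 to 16.6 in 6AN (median 12.4), a 2.26-fold higher mean, and its ranges did not overlap. The merged *CSNK1E* locus was higher in 6AN at 12 of 12 time points (mean 115 ± 6.97 FPKM against 90.4 ± 4.10), and *RPE* was lower at 11 of 12 (22.7 ± 2.40 against 25.4 ± 1.88).

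The smallest ratios with one direction throughout were those of *SOCS3*, *MIR4724*/*RAB11FIP4*, *MIAT*/*MIATNB*, *CASC10*, and *TK1*. *SOCS3*, an inhibitor of cytokine signalling whose member lay outside the locus, ran from 20.3 to 31.2 FPKM in control (median 27.9) and from 3.60 to 5.70 in 6AN (median 4.74). *TK1*, the thymidine kinase of DNA synthesis, ran from 74.9 to 112 FPKM in control and from 19.2 to 55.7 in 6AN, where the highest value was that of CT00 and the lowest that of CT44. The *MIR4724*/*RAB11FIP4* value rests on few libraries, because control reached 86.4 FPKM in 1 library while its median was 5.96. The long noncoding RNA locus *MIAT*/*MIATNB* had a mean of 37.9 ± 8.24 FPKM in control and 11.8 ± 1.81 in 6AN. *CASC10* had 5.10 ± 0.94 and 1.39 ± 0.34.

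The other loci with the largest ratios were lowly expressed. *HEY1*, a Notch target, had a mean of 1.79 ± 0.50 FPKM in control and 4.66 ± 1.15 in 6AN. *ABCA3*, a lipid transporter with a member at -91 bp from its start, had 1.11 ± 0.24 and 3.07 ± 0.57. *UNC5B*, a netrin receptor, had 6.32 ± 0.65 and 13.0 ± 1.33. The most highly expressed linked loci were *EEF1A1*/*SNORD141B* (32429 FPKM in control and 45829 in 6AN), *RPLP1* (4768 and 6015), *RPS18* (3571 and 4724), *TMSB10* (3721 and 2445), and *ACTB* (3067 and 3126), so genes of translation and of the cytoskeleton were at the top of the range. *EEF1A1* has many processed copies in the genome and its level is uncertain for that reason.

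**Figure D5:**
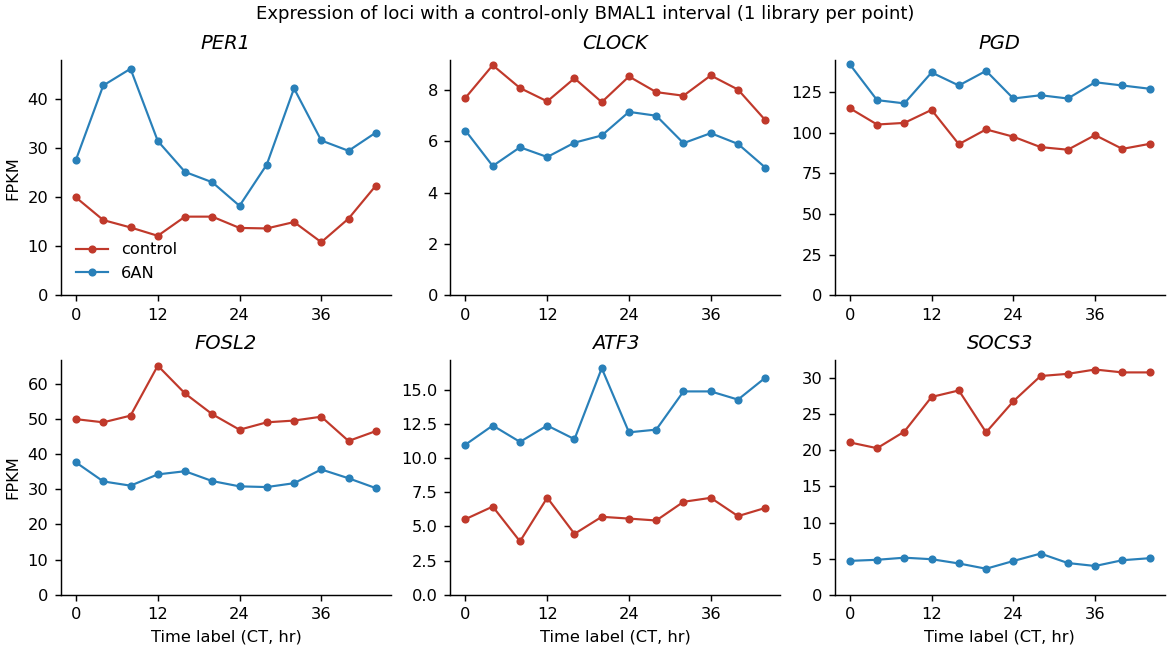
FPKM (y axes) of 6 loci linked to a control-only interval at each time label (x axes, hr), with 1 library per point, in control and 6AN. *PER1*, *PGD*, and *ATF3* are higher in 6AN at each time point and *CLOCK*, *FOSL2*, and *SOCS3* are lower.

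The other genes at the highest-scoring promoters had smaller ratios than *PER1*. *NBPF1* had 6.00 ± 0.72 FPKM in control and 9.66 ± 0.55 in 6AN, and was higher in 6AN at 12 of 12 time points. *TOM1* (59.6 ± 4.99 and 74.9 ± 5.03) and *USP32*, a deubiquitinase gene (17.1 ± 0.78 and 19.0 ± 1.31), were also higher at 12 of 12. *STYX*, a pseudophosphatase gene, was lower in 6AN at 8 of 12 (11.7 ± 0.82 and 10.8 ± 0.86).

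Few linked loci passed the rhythm test, at a share near that of all loci. Rhythms were tested within each table by a permutation rank test against umbrella shapes with a 24 hr period. The paper reports that the treatment lengthens the period of clock gene rhythms. A test fixed at 24 hr can miss rhythms of other lengths, and other periods were not tested. Its counts and p values therefore do not compare the strength of rhythms between control and 6AN. At p of at most 0.01, 16 of 997 linked loci (1.6%) were called in control, where 1.02% of all expressed loci were, and 12 (1.2%) in 6AN, where 0.987% were. These shares over all loci were near the rate that the threshold gives without any rhythm, so the test had little to say about the members. With Benjamini-Hochberg adjustment over all expressed loci, this permutation test left 0 linked loci at 0.05, with adjusted p values from 0.762 up in control and from 0.848 up in 6AN. Before adjustment, 53 linked loci in control (5.32%, against 5.04% of all) and 37 in 6AN (3.71%, against 4.19%) were under 0.05. Harmonic regression at 24 hr gave 5 loci in control (0.502%, against 0.951% of all) and 7 in 6AN (0.702%, against 1.12%) at p of at most 0.01, below the shares of all loci where the permutation test was above them. It gave 49 (against 4.64% of all) and 39 (against 4.46%) under 0.05, and 0 after adjustment. No linked locus was called in both conditions by the umbrella test (0). With 16 and 12 calls among 997 loci, hardly any overlap could arise, and the share over all loci was not computed. This count therefore says nothing about a difference between conditions.

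The smallest permutation p values among linked loci in control were those of *REST*, a repressor of neuronal genes (p = 0.00128), *CCND3*, a cyclin gene, and *EXD3* (both 0.00202), and *DXO*, a decapping exonuclease, and *RN7SL2* (both 0.00214), none of which passed adjustment. The member at *CCND3* lay inside the gene, and its level ran from 52.2 to 77.8 FPKM in control. In 6AN they were those of *RNF149*, a ubiquitin ligase gene (permutation p = 9.37e-04), *C5orf45* (0.00128), *SOX12* (0.00202), *LDB1* (0.00214), and *NKILA* (0.00287). *PER1* had a permutation p of 0.0493 in control and 0.0754 in 6AN, and *CLOCK* 0.304 and 0.568. *ARNTL* itself ranged from 5.52 to 11.2 FPKM in control (permutation p = 2.35e-04, adjusted p = 0.548) and from 3.29 to 12.6 in 6AN (permutation p = 0.00857, adjusted p = 0.920). *NPAS2*, the other partner of BMAL1, was lower in 6AN at 12 of 12 time points (29.3 ± 6.18 and 16.7 ± 1.63 FPKM). *CRY1*, *CRY2*, and *PER2* had no control-only interval, and their mean FPKM was 8.99, 5.62, and 2.78 in control and 12.8, 9.14, and 4.21 in 6AN.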

How the data were processed

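Chromatin of 4 clock factor libraries and RNA of 24 libraries from *Bmal1*:*luc* U2OS cells were used. Input and H3K4me3 libraries of the same cells were read only at the quantified windows. Expression was deposited by the authors as FPKM per locus in 2 tables that were normalized separately. Binding was deposited as the HOMER score of each merged peak and, at sites shared by BMAL1 and CLOCK, the signal in 1000 bp scaled to 10000000 tags. Bowtie, Bowtie2, TopHat, Cufflinks, and HOMER on hg38 are named in the submitters' processing notes, without versions. Replicates were not available for ChIP-seq. Library totals of the 4 factor libraries ran from 4078867 to 7896480 tags.

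Members and lists were chosen with earlier results of these data known. Members were linked to loci within 5 kb and to RefSeq gene starts (GRCh38.p14) within 1 kb. Shares carry 95% Wilson intervals and differences 95% Newcombe intervals. FPKM received a pseudocount of 1 before logarithms, and loci under a mean of 1 FPKM were left out. The umbrella test folded 12 time points into 6 phases, compared 18 shapes, and used 1000000 random orders. Named intervals were the 10 highest and 3 lowest scores and those within 5 kb of listed genes. Named loci were the 5 largest and 5 smallest ratios of constant direction, the 5 highest FPKM, up to 5 per condition with p of at most 0.01, and any with 3 or more members, of which there were 0. Tests were run on simulated data first. Python 3.11.15, NumPy 2.4.6, pandas 2.3.3, SciPy 1.17.1, and matplotlib 3.10.9 were used. No per-sample column was set aside (0). Values of some single genes are not reported here.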

Additional observations from a re-analysis of the deposited data

How the results depend on the processing

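Leaving out the 1 member outside chromosomes 1 to 22 and X changed no share beyond its interval. Every member was a single peak, so keeping single peaks could change nothing and is not counted here, and 692 members remained when the nearest BMAL1 6AN interval had to be over 10 kb away. Keeping members at or above the median score of all BMAL1 control intervals left 154, with 40.3% inside a locus and 71.9% within 1 kb of a start. As an alternative chosen after seeing the data, their 214 linked loci had a median log2 ratio of 0.028. Of these, 48 were higher in 6AN (22.4%, against 13.0% of all) and 34 lower (15.9%, against 20.4% of all). A limit of 5 kb to a start gave 73.7%, and adding CACGTT gave 19.0% of promoters. Centring on the median of all loci gave a median of 0.025, with 191 higher and 165 lower (16.8% and 17.4% of all loci), so the balance of the 2 directions turned with the scaling. Linking by midpoint inside the locus (495 loci) gave 76 higher (15.4%, against 13.0% of all) and 97 lower (19.6%, against 20.4%). It gave 8 rhythmic in control (1.62%, against 1.02% of all) and 7 in 6AN (1.41%, against 0.987%). Linking within 50 kb gave 290 higher (15.5%) and 404 lower (21.6%) of 1872. Linking by gene start, chosen after seeing the data, gave 87 higher (17.4%) and 101 lower (20.2%) of 499. Both stand against 13.0% and 20.4% of all loci. These counts follow the number of loci linked. Rhythmic loci in control numbered 5 by harmonic regression, 53 at p of at most 0.05, and 0 at 0.001, and in 6AN 7, 37, and 1. Leaving out each time point gave 158 to 167 higher, 203 to 213 lower, medians of -0.022 to -0.010, and by harmonic regression 6 to 12 rhythmic loci in control and 6 to 11 in 6AN. Of 112 alternative values, 74 stayed within the spread or a factor of 1.5. A search of 500 bases around midpoints was not run, because no genome of the files' build was used here. The labels carry no replicate numbers. Control and 6AN were paired by time label only to set values side by side, and no test between conditions was run, since the tables were normalized separately. With 1 library per antibody and a median of 11.5 tags, a peak missing from a list was not shown to be absent.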
